A study of Homo sapiens with 6 samples.

Results

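The replication-independent variant histones were taken as 10 genes, among them H2AFX, H2AFZ, H2AFV, H2AFY, H2AFY2, H2AFJ, H3F3A, H3F3B and H1FX, found in the count table by their symbols in GENCODE release 29, out of 58721 genes. RNA of cleared detergent lysates was sequenced after depletion of ribosomal RNA and without poly(A) selection, in 3 libraries of wild type HEK293T cells and 3 of HEK293T cells in which CRISPR/Cas9 had disrupted both ALKBH5 and FTO. HEK293T is a human embryonic kidney line, and the products of ALKBH5 and FTO remove methyl groups from adenosine in RNA. Both groups grew in the same medium. How many knockout clones were used is not given in the labels. The wild type columns carry the name HEK293G6, which the labels leave unexplained, and a difference between cell lines cannot be told apart from the knockout. Per the series' design, the 3 libraries of a group came from separate biological replicates.

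Canonical histones are made in S phase from clustered genes without introns, whose mRNAs end in a stem-loop in place of a poly(A) tail. Variant histones are made throughout the cell cycle, mostly from solitary genes with polyadenylated mRNAs, and replace canonical histones at particular places: H2A.Z beside promoters, macroH2A in silent chromatin, and the replacement H3 variant in transcribed genes and at telomeres. H2AX is spread through chromatin and is phosphorylated beside DNA breaks, and the linker histones of the H1 family bind DNA between nucleosomes.

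Libraries held 5634648 to 7551825 counts in genes. The wild type libraries held FTO at 106, 96.5 and 112 CPM (counts per 1000000, with TMM-scaled library sizes), the double knockout libraries at 53.8, 53.6 and 61.0 CPM. For ALKBH5 the levels were 243, 256 and 235 against 186, 186 and 187 CPM. Both targeted transcripts were thus lower but present. All 7 genes listed as typical of HEK293 (PAX2, NEFM, NEFL, VIM, KRT8, KRT18 and CDH2) were detected. Their summed levels were 1109 to 1182 CPM in wild type and 1584 to 1595 CPM in double knockout. VIM made up most of the sum, with a wild type mean of 844 CPM, while PAX2 stood at 3.38 CPM. Each of the 7 was called higher (adjusted p below 0.05 in edgeR), against 28.6% of all tested genes. The 5 blood genes summed to at most 2.62 CPM in any library, with HBB and CD3E at 0, and the 5 fibroblast genes to at most 16.4 CPM, with COL1A2 at 0. The 8 kidney tubule genes summed to at most 19.2 CPM, with SLC12A1 at 0. Within groups, counts differed by 1.11 to 1.41 times the sampling variance (chi-square over degrees of freedom).

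Most variant histone mRNAs were lower in the double knockout. Of the 10 genes, 9 passed the filter on low counts, and of these 7 fell, 1 rose and 1 did not pass the test. H2AFZ fell most, followed by H1FX and H2AFV, while H2AFX rose slightly and H2AFY had nearly equal levels. Over all 14180 tested genes 28.5% were called lower and 28.6% higher (57.1% in either direction), so a call in itself was common. Scaled instead by the added GFP and FLuc spike-in RNAs, 29.9% were called lower and 15% higher (44.9% in either direction), and 7 variant genes were lower and 0 higher. The median log2 fold change (double knockout over wild type) was -0.25 over the 9 variant genes and 0.01 over all tested genes. In 6 of the 9 genes every double knockout library lay below every wild type library, which 30.3% of all tested genes did in that direction. Bulk RNA does not tell fewer expressing cells apart from less RNA per cell.

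**Figure D1:**
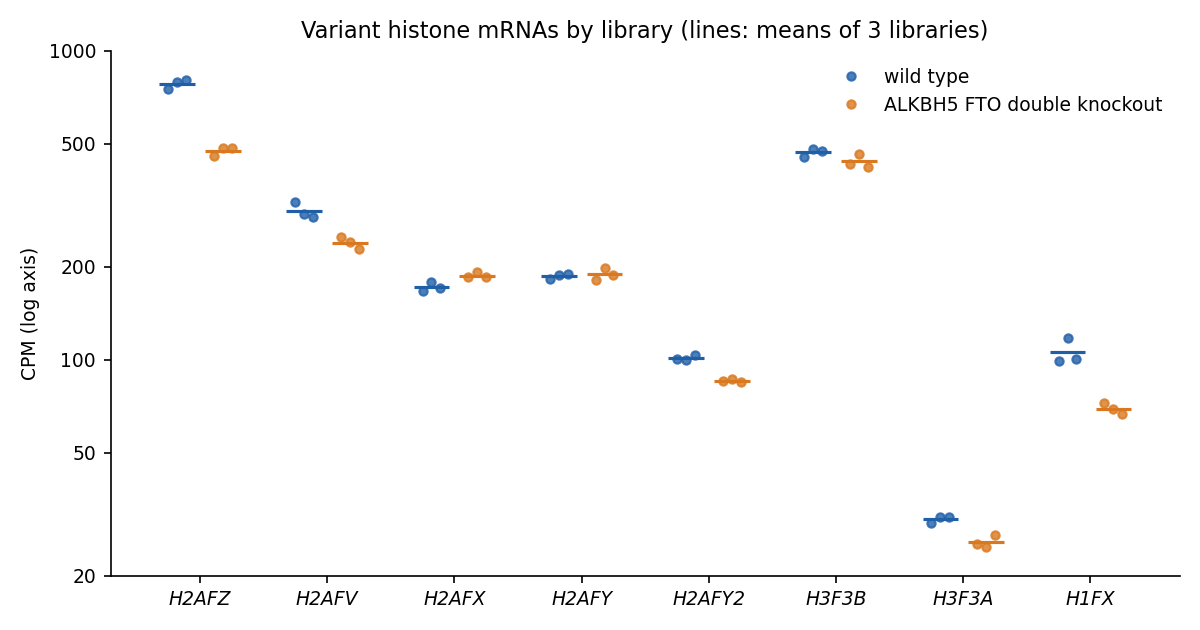
CPM of 8 measured variant histone genes in each library on a log axis, wild type in blue and double knockout in orange, with a line at the mean of each group of 3 libraries. H2AFZ stands highest in wild type at 782 CPM and falls to 475 CPM, whereas the groups of H2AFY and H3F3B overlap.

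H2A.Z is encoded by H2AFZ and H2AFV, whose proteins are nearly identical. H2AFZ (ENSG00000164032.11, chromosome 4, 99948086 to 99950388, minus strand, hg38) stood at 754, 791 and 802 CPM in wild type, against 455, 484 and 485 CPM in double knockout. The groups were far apart, and all 3 double knockout libraries were lower. H2AFZ fell by 0.72 on the log2 scale (SE 0.03, 95% interval -0.78 to -0.66, adjusted p = 2.13e-87 in edgeR's quasi-likelihood test with Benjamini-Hochberg adjustment, as for all adjusted p below). The means were 782 ± 25.1 and 475 ± 16.9 CPM (SD, n = 3 each). Only 4.35% of tested genes had a lower log2 fold change. H2AFV (ENSG00000105968.18, chromosome 7, 44826791 to 44848083, minus strand) stood at 324, 295 and 291 CPM in wild type, against 250, 240 and 228 CPM in double knockout, again without overlap. H2AFV fell by 0.35 (SE 0.04, interval -0.42 to -0.28, adjusted p = 5.76e-19).

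The promoter windows of H2AFZ and of H2AFX, the genes with the largest fall and the only rise, and of H1FX, which also fell, are shown because they differ in CCAAT boxes, the motif bound by the NF-Y complex. Each runs 5′ to 3′ on the gene's strand, from 250 bases before to 50 bases after the start in RefSeq (GRCh38.p14), with CCAAT or its reverse complement ATTGG in capitals. H2AFZ covers chr4:99950226-99950525, H2AFX chr11:119095416-119095715 and H1FX chr3:129316237-129316536, all on the minus strand.
H2AFZ: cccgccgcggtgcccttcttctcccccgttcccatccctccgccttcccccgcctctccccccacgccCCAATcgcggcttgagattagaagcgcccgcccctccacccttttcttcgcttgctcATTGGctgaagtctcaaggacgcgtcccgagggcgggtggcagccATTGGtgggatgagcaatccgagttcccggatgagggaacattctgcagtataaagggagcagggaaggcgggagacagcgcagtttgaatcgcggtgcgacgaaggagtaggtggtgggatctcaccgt
H2AFX: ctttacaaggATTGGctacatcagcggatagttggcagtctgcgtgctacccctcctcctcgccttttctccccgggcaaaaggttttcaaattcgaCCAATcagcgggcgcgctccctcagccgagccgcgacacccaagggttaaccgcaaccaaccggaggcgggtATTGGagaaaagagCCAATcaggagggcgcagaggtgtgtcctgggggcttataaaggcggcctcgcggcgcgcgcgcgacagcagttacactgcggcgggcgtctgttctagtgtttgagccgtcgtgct
H1FX: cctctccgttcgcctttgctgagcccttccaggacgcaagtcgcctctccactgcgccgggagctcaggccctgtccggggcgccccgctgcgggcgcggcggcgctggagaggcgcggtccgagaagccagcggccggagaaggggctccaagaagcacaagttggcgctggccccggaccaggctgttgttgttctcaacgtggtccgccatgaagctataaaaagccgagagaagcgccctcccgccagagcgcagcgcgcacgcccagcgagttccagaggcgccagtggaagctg
CCAAT was found 3 times for H2AFZ, 4 times for H2AFX and 0 times for H1FX, on either strand. RefSeq starts were listed for 9 of the 10 genes. Of their 13 windows, some overlapping, 9 held CCAAT, against 34.6% of 35116 windows of the same length over all genes. H2AFV and H3F3B had 4 matches each. Genes with several CCAAT matches include the largest fall, H2AFZ, the small fall of H3F3B and the slight rise of H2AFX. That rise was not called with spike-in scaling. H2AFY, with 0 and 2 matches in its windows, did not pass the test, and H3F3A, with 0 or 1 match per window, fell. H2AFJ, with 3 matches, had 0 counts, while H2AFY2, with 0 matches like H1FX, fell. A match in letters is not evidence of binding, and a link between matches and fold change was not tested.

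H2AFX (ENSG00000188486.3, chromosome 11, 119093854 to 119095467, minus strand), whose product carries the phosphorylated tail that marks DNA breaks, stood at 167, 178 and 171 CPM in wild type, against 185, 192 and 185 CPM in double knockout. The double knockout libraries were all higher, by a small margin. H2AFX rose by 0.12 (SE 0.04, interval 0.04 to 0.20, adjusted p = 0.00620). The call was lost without wild type replicate 1 (adjusted p = 0.0760), without double knockout replicate 2 (0.0565) and with DESeq2 (0.0763), and spike-in scaling gave 0.01 (adjusted p = 0.923), in a range of 0.00138 to 0.923 over 14 alternatives.

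Among the variant genes H2AFX has a mixed mRNA form: it can end at a histone stem-loop, like canonical histone mRNAs, or at a poly(A) site further on. The stem-loop letters, searched on the transcript strand as GG, 2 bases of any kind, CTT, any base, T, any base, AG, 2 bases of any kind and CC, were found in the longest coding transcript of H2AFX and in none of the other 9 genes. They were found in 28 of 67 replication-dependent histone genes and in 0.503% of 19684 protein-coding genes. The search covered only this pattern in the longest annotated coding transcript, so a gene without a match may still have a stem-loop. The site of H2AFX is set beside that of HIST1H2AG, the replication-dependent H2A gene with the highest CPM among those holding the letters, as 30 bases of the transcript with the stem and loop in capitals. They lie at chr11:119094891-119094920 on the minus strand and chr6:27133508-27133537 on the plus strand (GENCODE 29, GRCh38).
H2AFX: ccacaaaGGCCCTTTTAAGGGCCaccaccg
HIST1H2AG: aaccaacGGCTCTTTTCAGGGCCacccacg
In H2AFX the letters began 50 bases after the stop codon and were followed by 1044 further bases of annotated transcript, and in HIST1H2AG they began 51 bases after it and were followed by 1761. Annotated transcript beyond the stem-loop was thus not particular to H2AFX. Counts per gene do not show at which of these ends the H2AFX mRNAs stopped. HIST1H2AG fell by 0.55 on the log2 scale, whereas H2AFX rose by 0.12.

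MacroH2A carries a large domain beyond the histone fold and is encoded by H2AFY and H2AFY2. H2AFY (ENSG00000113648.16, chromosome 5, 135333900 to 135399914, minus strand) stood at 183, 187 and 190 CPM in wild type, against 182, 198 and 188 CPM in double knockout. The groups overlapped, and the log2 fold change of 0.02 had an interval of -0.05 to 0.10 (adjusted p = 0.646). H2AFY2 (ENSG00000099284.13, chromosome 10, 70052796 to 70112280, plus strand) stood at 101, 99.8 and 104 CPM in wild type, against 85.6, 86.5 and 84.5 CPM in double knockout. These groups did not overlap, and H2AFY2 fell by 0.24 (SE 0.05, adjusted p = 1.37e-05). H2AFY2 overlaps AIFM2 on the opposite strand, which rose by 1.56 with a total count equal to 5.88% of that of H2AFY2. The library kit keeps the strand, per the labels' protocols, but whether the counting used it is not stated in the labels.

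H2AFJ (ENSG00000246705.4, chromosome 12, 14774383 to 14778002), a variant close to canonical H2A, was listed at 0 counts in all 6 libraries. A count of 0 allows up to 3 counts, or 0.407 to 0.545 CPM by library, for counting error only. Whether the gene was not expressed or its reads were not counted cannot be told apart from the table. Its neighbour HIST4H4 was tested and fell by 0.33.

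The replacement H3 variant is made from H3F3A and H3F3B, which encode the same protein from different mRNAs. H3F3B (ENSG00000132475.10, chromosome 17, 75776434 to 75785893, minus strand) stood at 454, 482 and 474 CPM in wild type, against 430, 464 and 422 CPM in double knockout. Double knockout replicate 2 lay within the wild type range. H3F3B fell by 0.10 (SE 0.03, adjusted p = 0.00450), and the call was lost without double knockout replicate 3 (-0.07, adjusted p = 0.0859, in a range of 3.50e-04 to 0.0859 over 14 alternatives). Scaled by GFP and FLuc, H3F3B stood at -0.21 (adjusted p = 0.0298). UNK, on the opposite strand, overlaps H3F3B, had 26.0% as many counts and a log2 fold change of 0.06 that did not pass (adjusted p = 0.263). H3F3A (ENSG00000163041.9, chromosome 1, 226061851 to 226072001, plus strand) stood at 29.6, 31.0 and 31.0 CPM in wild type, against 25.3, 24.8 and 27.0 CPM in double knockout. The groups did not overlap, and H3F3A fell by 0.25 (SE 0.09, adjusted p = 0.0141). With DESeq2 (adjusted p = 0.0677) and without double knockout replicate 2 (0.0571) this call was lost, in a range of 0.00956 to 0.0677.

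H3F3A shares the most sequence with other genes. Of the stretches of 50 bases in its longest coding transcript, 12.9% also occur in transcripts of 9 other genes, among them the pseudogenes H3F3AP4 and H3F3AP6. The share was 8.28% for H3F3B (H3F3C), 6.45% for H2AFZ (H2AFZP3), 3.06% for H2AFV, 0.319% for H2AFX and 0 for the other 5 genes. The 15 pseudogenes named after H2AFZ, H2AFV, H3F3A and H3F3B had 39 counts together over all libraries, 24 of them in H2AFZP3.

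H1FX encodes a linker histone variant. H1FX (ENSG00000184897.5, chromosome 3, 129314771 to 129316277, minus strand) stood at 99.3, 117 and 101 CPM in wild type, against 72.3, 69.1 and 66.7 CPM in double knockout. Wild type replicate 2 was the highest library, and no libraries of the groups overlapped. H1FX fell by 0.61 (SE 0.05, interval -0.72 to -0.51, adjusted p = 6.65e-25), with -0.67 to -0.54 when single libraries were left out. H1FX-AS1, antisense to it, had 6.57% as many counts and a log2 fold change of 0.08 that did not pass.

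The largest falls lay where neighbouring genes fell by a similar amount. Around H2AFZ, 28 other tested genes start within 5 Mb, of which 22 fell and 0 rose, with a median log2 fold change of -0.73. Relative to that median H2AFZ stood at 0.01, and at -0.08 with 10 Mb. Its nearest tested gene to the left, DNAJB14, fell by 0.70, and to the right AC097460.1, a scarce antisense gene, had 0.10 and did not pass. Around H1FX, 46 of 63 genes fell and 1 rose (median -0.54), which left H1FX at -0.08, or -0.03 with 10 Mb, and its neighbour HMCES fell by 0.31. Around H2AFV, 22 of 38 genes fell and 3 rose (median -0.26), which left -0.09, or -0.04 with 10 Mb, and the adjacent genes PPIA and PURB fell by 0.48 and 0.40. What part the surrounding segment has in these falls was not tested.

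Around the other genes described here the medians within 5 Mb were nearer to 0. They were -0.02 for H2AFY2 (22 of 78 genes rose and 17 fell), -0.04 for H3F3A (17 and 25 of 74), 0.03 for H2AFX (18 and 12 of 63) and 0.03 for H2AFY (19 and 22 of 73). Around H3F3B 43 of 107 genes rose and 14 fell, with a median of 0.10, while H3F3B itself fell by 0.10. Relative to these medians H2AFY2 stood at -0.22, H3F3A and H3F3B at -0.20 each and H2AFX at 0.09, or 0.06 with 10 Mb. Beside H3F3B, GALK1 rose by 0.29, and beside H2AFX, DPAGT1 rose by 0.25. SDE2 (0.04), to the left of H3F3A, did not pass, while LINC01703 to its right rose by 0.54. COL13A1 (0.08), beside H2AFY2, and C5orf66 (0.20) and SLC25A48 (-0.34), beside H2AFY, did not pass.

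**Figure D2:**
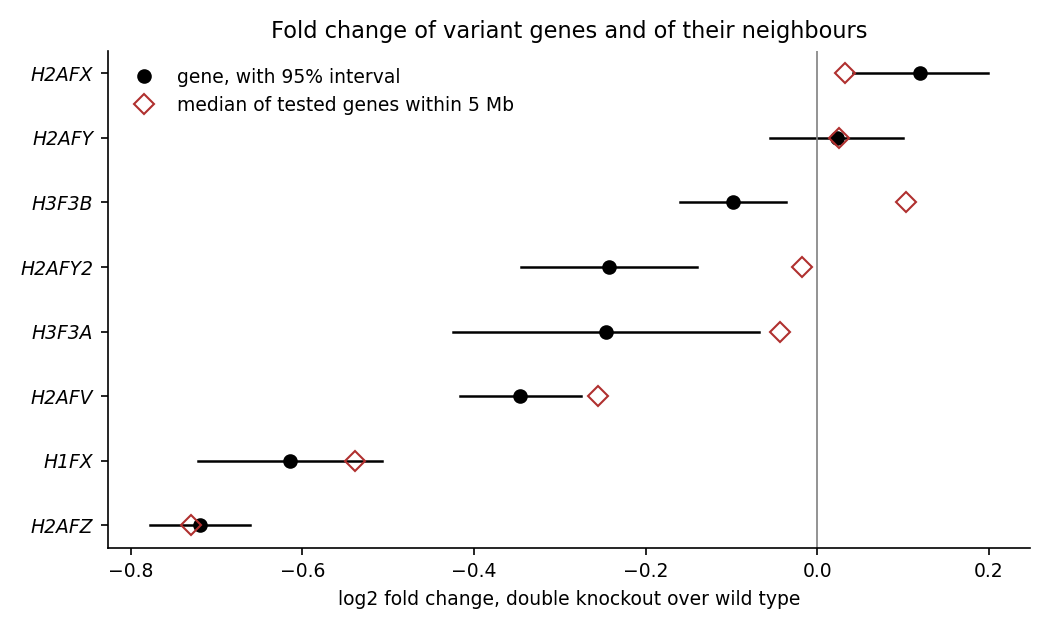
Log2 fold change of 8 variant genes with its 95% interval (filled points and lines) and the median of the tested genes that start within 5 Mb (open diamonds), ordered by fold change. The diamond lies within the interval for H2AFZ, H1FX and H2AFY, and just to its left for H2AFX. It lies just to the right for H2AFV and H3F3A, and well to the right for H2AFY2 and H3F3B.

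Ratios of paired genes within a library do not depend on how libraries are scaled. The ratio of H2AFZ to H2AFV counts was 2.33, 2.68 and 2.76 in wild type and 1.82, 2.02 and 2.13 in double knockout, a difference of -0.38 on the log2 scale. Neighbours within 5 Mb had medians of -0.73 for H2AFZ and -0.26 for H2AFV. Relative to these, H2AFZ stood at 0.01 and H2AFV at -0.09. What part the surroundings have in this ratio was not tested. The ratio of H2AFY to H2AFY2 was 1.81, 1.88 and 1.83 in wild type and higher in double knockout at 2.12, 2.29 and 2.22, a difference of 0.26. H3F3A to H3F3B was 0.0651, 0.0643 and 0.0655 in wild type and 0.0588, 0.0534 and 0.0641 in double knockout, a difference of -0.15, or -0.08 without double knockout replicate 2. The groups did not overlap in any of these 3 pairs, though for H3F3A to H3F3B the margin was narrow (0.0643 against 0.0641). Each pair had a two-sided exact permutation p = 0.1 (adjusted over the 4 pairs tested 0.1), the smallest that 3 against 3 libraries allow. No pair could therefore pass 0.05.

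**Figure D3:**
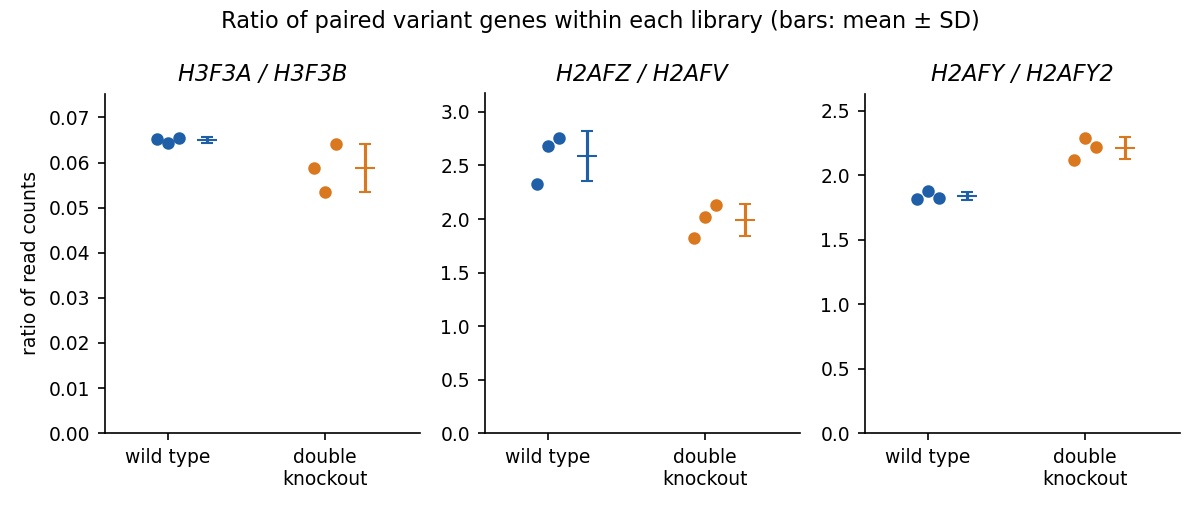
Ratio of read counts of paired variant genes in each library, with mean and SD of 3 libraries per group and axes from 0. Ratios of H3F3A to H3F3B and H2AFZ to H2AFV are lower in all double knockout libraries, and those of H2AFY to H2AFY2 are higher. For H3F3A to H3F3B the groups are separated only narrowly.

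Per length of merged exons, H2AFZ had the highest level in wild type, 799 ± 25.6 CPM per kb (SD, n = 3), above 99.6% of tested genes. H3F3B had 160 ± 4.90 and H2AFX 107 ± 3.46 CPM per kb. H1FX (70.2 ± 6.60), H2AFV (63.9 ± 3.81) and H2AFY (61.8 ± 1.18) had lower levels, and each overlapped its neighbour in that order. H2AFY2 had 51.2 ± 1.03 CPM per kb and H3F3A 9.70 ± 0.265, close to the median of 8.92 over all tested genes. In double knockout H2AFZ remained highest at 485 ± 17.2 CPM per kb. H1FX dropped there to 46.0 ± 1.84, below H2AFY (62.7 ± 2.78) and H2AFV (50.3 ± 2.29), with no overlap between neighbours in the order. Lengths were those of annotated exons, not of the mRNAs present. H3F3A shares the most sequence with other genes, and the handling of multiply aligned reads is not stated. Its level and its ratio to H3F3B are therefore uncertain.

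GGACT, a frequent form of the sequence around m6A, was sought on the transcript strand of the longest coding transcripts. It occurred in 7 of the 9 measured variant genes, against 92.8% of 12119 tested protein-coding genes. H2AFZ, H2AFX and H2AFV held 3 matches each, or 3.06, 1.86 and 0.789 per kb, and H3F3B held 0. The median over tested protein-coding genes was 0.926 per kb. Genes with GGACT include the largest fall and the only rise, and H3F3B, with none, fell as well. No methylation was measured.

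Replication-dependent histone genes gave the comparison with the other way of making histones. They were taken by symbol, as protein-coding genes named HIST1H to HIST4H, apart from the other variant genes described below. Of 67 such genes 41 were tested, of which 35 fell, 3 rose and 3 did not pass, with a median of -0.64. These are 85.4% lower and 7.32% higher, against 28.5% and 28.6% of all tested genes. The 3 that rose, named after their values were seen, were HIST1H2AE (1.64), HIST1H2BG (1.61) and HIST1H3E (0.43). All 3 were scarce: mean CPM in wild type and double knockout was 4.32 and 13.2, 2.12 and 6.38, and 11.6 and 15.8. By class, the median was -0.65 for H1 (3 of 3 fell), -0.62 for H2A (8 of 10), -0.66 for H2B (11 of 13), -0.69 for H3 (6 of 7) and -0.46 for H4 (7 of 8). These genes lie on chromosomes 1, 6 and 12, where the medians of tested neighbours lay between -0.07 and 0.08. HIST1H3H on chromosome 6 fell by 0.91 among neighbours with a median of 0.05, and HIST2H2BE on chromosome 1 fell by 0.95 among neighbours at -0.01. Members of this family are near-identical, so their counts are uncertain.

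Variant genes held a larger share of H2A and H3 counts in the double knockout. Counts of a class were those of its listed variant genes and its replication-dependent genes, not corrected for length. CENPA and the other variant genes described below were left out. The replacement H3 genes held 25.5%, 25.9% and 25.7% of H3 counts in wild type and 34.8%, 33.5% and 33.6% in double knockout. The sum of replication-dependent H3 counts changed from 1448 ± 28.96 to 904 ± 58.6 CPM (SD, n = 3 each), that of the replacement H3 genes from 500.3 ± 15.2 to 464 ± 21.6 CPM. The 6 H2A variant genes held 42.8%, 41.6% and 42.4% of H2A counts in wild type and 48.2%, 45.2% and 47.5% in double knockout. Their sum was 1545 CPM in wild type and 1176 CPM in double knockout, that of replication-dependent H2A 2113 ± 64.4 and 1330.3 ± 113 CPM, so the share was larger while both sums were lower. In both classes each double knockout library exceeded each wild type library. Reads shared between near-identical genes may be missing from either side, so the shares compare libraries and are not absolute.

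**Figure D4:**
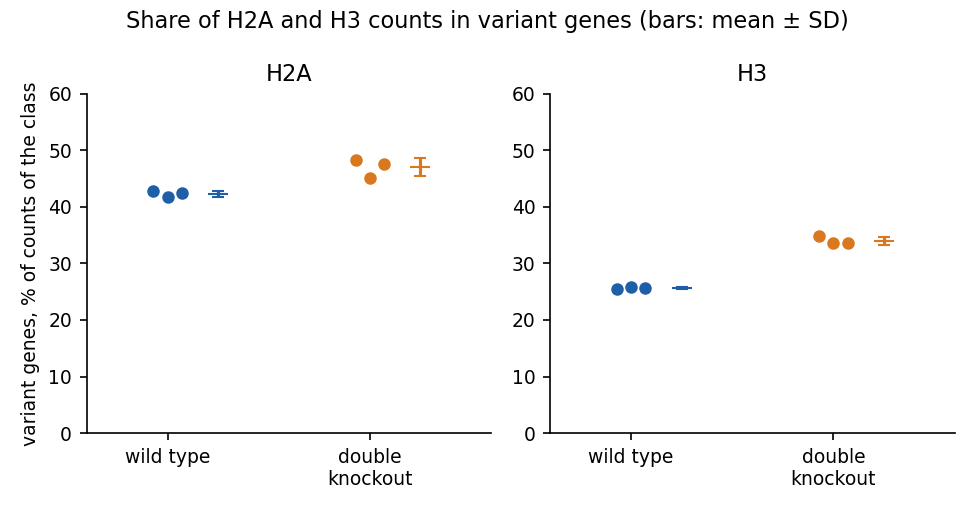
Percent of the counts of H2A and H3 genes that fell in variant genes, by library, with mean and SD of 3 libraries per group. Counts are those of the listed variant genes and the replication-dependent genes. The share is higher in every double knockout library, most clearly for H3, where it moves from 25.7% to 34.0%.

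CENPA, the centromeric H3 variant, was the only tested gene of 13 other variant histone genes. CENPA fell by 0.41 (SE 0.07, adjusted p = 6.04e-09) among neighbours with a median of 0.01. The other 12, most of them known from the germ line, had 50 counts together over all 6 libraries, at most 17 in a gene (HIST1H1T), and 5 were at 0.

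Of 38 listed histone chaperones and remodellers, not all of them particular to variant histones, all were tested. Of these, 15 fell, 10 rose and 13 did not pass (median -0.06). These are 39.5% lower and 26.3% higher, against 28.5% and 28.6% of all tested genes. ASF1A, which hands H3 and H4 to other chaperones, fell by 0.74 among neighbours at -0.41, and its paralogue ASF1B rose by 0.29 among neighbours at 0.15. ANP32E, which removes H2A.Z from chromatin, fell by 0.32, and the histone chaperone gene NAP1L1 fell by 0.33, with neighbours at 0.02 and -0.06. RUVBL1, a helicase subunit of the remodellers that deposit H2A.Z, fell by 0.65 among neighbours at -0.57 on chromosome 3. ZNHIT1 (0.43) and VPS72 (0.22), subunits of the SRCAP remodeller that inserts H2A.Z, rose, as did DAXX (0.28), which places the replacement H3 variant with ATRX. Their neighbours stood at 0.26, 0.02 and 0.15. In place of 10, 1 gene of the list was called higher with spike-in scaling, 5 without double knockout replicate 2 and 4 with DESeq2. ASF1B, DAXX and VPS72 lost their calls with spike-in scaling. RUVBL1, ASF1A, ZNHIT1 and VPS72 overlap other tested genes.

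Of 19 listed genes that phosphorylate H2AX or read and reverse that mark, 17 were tested, of which 10 fell, 3 rose and 4 did not pass (median -0.18). These are 58.8% lower and 17.6% higher, against 28.5% and 28.6% of all tested genes. PPP4R2, a subunit of the phosphatase that acts on phosphorylated H2AX, fell by 1.59 (SE 0.06, adjusted p = 2.55e-104), among neighbours on chromosome 3 with a median of -1.31. The kinase genes ATR and ATM fell by 1.03 and 0.39, with neighbours at -0.53 and -0.02, and UIMC1, a ubiquitin reader at breaks, fell by 0.53 among neighbours at -0.31. BRCA1 rose by 0.29, PPP4C, the catalytic partner of PPP4R2, by 0.23 and BAZ1B, which phosphorylates H2AX on tyrosine, by 0.19. The neighbours of BRCA1, PPP4C and BAZ1B stood at 0.09, 0.17 and 0.28, so BAZ1B stood below the median of its surroundings. None of these 3 rises was called with scaling by GFP and FLuc, and BRCA1 was called with Rluc included (0.20, adjusted p = 0.0264, in a range of 2.03e-12 to 0.0796 over its alternatives). PPP4R2, ATM and BRCA1 overlap other tested genes.

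Of 14 listed factors that form or degrade the ends of histone mRNAs, all tested, 5 fell, 4 rose and 5 did not pass (median -0.07). These are 35.7% lower and 28.6% higher, close to the shares of all tested genes. SLBP, which binds the stem-loop, rose by 0.63 (SE 0.04, adjusted p = 1.44e-46) among neighbours on chromosome 4 with a median of 0.49. SYMPK, a scaffold of the cleavage complex, fell by 0.58 among neighbours at -0.26 and XRN1, a 5′ exonuclease, fell by 0.52 among neighbours at -0.59. CPSF2, a subunit of the cleavage complex, fell by 0.13 among neighbours at -0.08. Its endonuclease CPSF3 rose by 0.28 and CSTF2 by 0.17, with neighbours at -0.13 and -0.06. UPF1 rose by 0.11 and LSM11, of the U7 particle, fell by 0.17, with neighbours at 0.21 and 0.08. UPF1 lost its call without single libraries, as did LSM11, and turned to -0.0022 with scaling by GFP and FLuc. Its adjusted p was 0.0190, and 0.129 without wild type replicate 1, 0.0975 without wild type replicate 2, 0.168 without double knockout replicate 2, 0.162 with DESeq2 and 0.0954 with no filter. For LSM11 the adjusted p was 0.0255, and 0.0584 without wild type replicate 1, 0.0617 without wild type replicate 3, 0.149 without double knockout replicate 3 and 0.0845 with DESeq2. With spike-in scaling 1 gene of the list was called higher, and 3 were called lower without wild type replicate 1, without double knockout replicate 3 or with DESeq2.

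**Figure D5:**
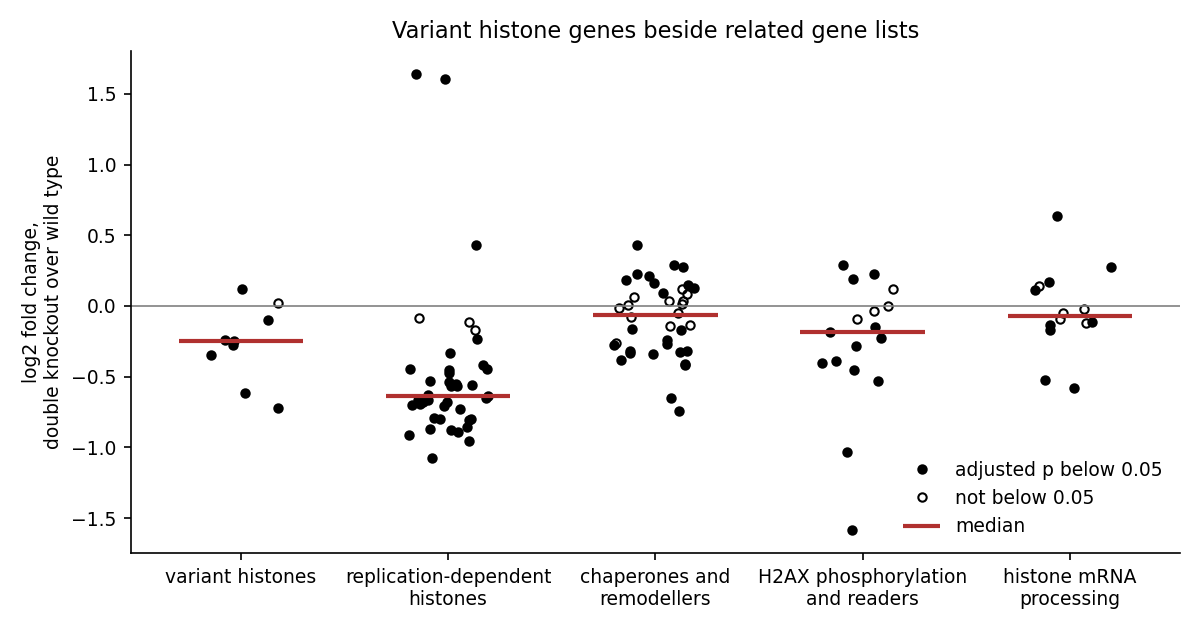
Log2 fold changes of single genes (points, filled where the adjusted p is below 0.05) with list medians (red lines) for the variant histones and 4 related lists. Variant histones have a median of -0.25, between that of replication-dependent histones (-0.64) and those of the other 3 lists (-0.18 to -0.06).

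The patterns most like those of the 3 variant genes with the smallest p were sought by Pearson's r of log2 CPM over the 6 libraries, among 11806 tested genes with a mean of at least 5 CPM. For H2AFZ these were DDR2 (r = 0.9995) and EVI5 (r = 0.9994), for H1FX MRPL18 (r = 0.9995) and DEDD2 (r = 0.999), and for H2AFV HELLS and CRAMP1 (r = 0.997 each). With H2AFZ 14.4% of the genes had r above 0.95. With 2 groups of 3 libraries r mainly follows the difference between groups, and all points share the same libraries.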

How the data were processed

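Reads were trimmed with cutadapt 2.10, aligned with STAR 2.7.6a to hg38 and counted per gene with featureCounts, per the submitters' processing notes. The authors deposited whole-number counts of reads, not normalised, for 58721 genes and 4 spike-in entries. All identifiers matched GENCODE release 29, which gave symbols and positions. The handling of strand and of multiply aligned reads is not stated in the labels, so overlapping and near-identical genes have uncertain counts. The submitters added 7 pg GFP and 1.2 pg FLuc mRNA to 1 µg of RNA per library, per the labels' protocols.

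In R 4.3.3, edgeR 4.0.16 tested double knockout against wild type in all 6 libraries: filterByExpr (minimum count 10, minimum total 15), TMM, robust glmQLFit and two-sided glmQLFTest, Benjamini-Hochberg over 14180 genes, threshold 0.05. The fit was also run on simulated counts with few changed genes, as many up as down. That run did not test library scaling where many genes change. SE is the fold change divided by the root of F. Ratios of paired genes were tested by exact permutation. Depth was 5634648 to 7551825 counts per library, and counting error limits genes such as H3F3A with 1096 counts in all. Alternatives were DESeq2 1.42.0, limma voom (limma 3.58.1), DESeq2 size factors, spike-in scaling, other filters, a replicate block and leaving out each library.

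Named were the variant genes, up to 4 called genes per list and direction with the smallest p, the nearest tested genes on each side and the 2 genes most alike in pattern for 3 variant genes. Members and lists were chosen with earlier results of these data known. Some results on single genes are not reported here, though counts and medians include them.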

Additional observations from a re-analysis of the deposited data

Results flagged for a closer look

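The count table held an entry for an Rluc spike-in, which the labels do not list among the added RNAs. It had counts in every library, the lowest being 271. It entered no comparison except an alternative scaling.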

How the results depend on the processing

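Calls of H2AFZ, H1FX, H2AFV and H2AFY2 kept their direction and passed 0.05 in all 14 alternatives of the test each, and H2AFX, H3F3A and H3F3B kept their direction but lost their calls in 5, 2 and 1 of 14. Spike-in scaling by GFP and FLuc (316 to 440 counts per library) lowered the median of all genes by 0.11 on the log2 scale. Genes called higher then numbered 2133, with 0 variant genes, 1 chaperone or remodeller, 0 H2AX-related genes and 1 processing factor. With Rluc included, which was chosen after seeing the data, they numbered 2406, 0, 1, 1 and 1. DESeq2 called 0 variant genes and 4 chaperones higher and 3 processing factors lower. H2AFY, not called in any setting, turned to -0.088 with GFP and FLuc, -0.072 with Rluc, -0.00042 without wild type replicate 1 and -0.015 without double knockout replicate 2 (range without single libraries -0.015 to 0.045), and UPF1 turned to -0.0022 with GFP and FLuc. H2AFZ minus the median of its neighbours within 5 Mb was 0.01. The cause of these changes was not tested.

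Leaving out single libraries gave 0 to 1 variant genes higher and 6 to 7 lower, 5 to 11 chaperones higher and 3 to 6 processing factors lower. With the replicate number as a block, 7 variant genes were lower and 1 higher. Deviations of same-numbered libraries correlated at 0.0106, 0.0166 and 0.0085, and the block changed no call of a variant gene. Within groups, counts differed by little more than sampling variance, so low correlations do not exclude a batch shared by number. Paired by number, the log2 ratios differed by -0.15 (H3F3A to H3F3B), -0.38 (H2AFZ to H2AFV) and 0.26 (H2AFY to H2AFY2) (exact p = 0.25, the smallest possible). Depth limits H3F3A most of the tested variant genes, with 1096 counts in all.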
